A study of Mus musculus with 2 samples.

Results

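Chromatin accessibility was examined at 7 genes of the PPAR and RXR receptor system: the PPAR genes Pparg, Ppara and Ppard, the RXR genes Rxra, Rxrb and Rxrg, and the coactivator gene Ppargc1a. They were taken by name from the GENCODE M21 annotation and are 7 of 21853 protein-coding genes. The data are DNase-seq maps of whole urinary bladder tissue from female adult mice of the strain B6CASTF1/J, an F1 cross of C57BL/6 and CAST, aged 18 to 20 months. There were 2 libraries of this 1 group, labelled biological replicates 1 and 2, and no treated or mutant group. The labels do not say whether the tissue samples came from separate animals, so the spread between libraries may be technical in part. DNase I cuts DNA that nucleosomes do not cover, and a peak is a stretch dense in cuts. In bulk tissue, fewer cells of a type and less accessible chromatin per cell cannot be told apart.

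PPARs are nuclear receptors for fatty acids and their derivatives, and they bind DNA as heterodimers with RXRs, the receptors for 9-cis retinoic acid and other lipids. PPARα is best known for switching on fatty acid oxidation in liver, PPARδ for the same in muscle and other tissues, and PPARγ for adipocyte differentiation. In the bladder, PPARγ is known for its part in the terminal differentiation of the urothelium, the epithelium that faces the urine. PGC-1α, the product of Ppargc1a, is a coactivator of PPARs and of genes for mitochondria. The DNA element of the heterodimer, called DR1, is a direct repeat of the half-site AGGTCA with 1 base between the copies.

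Replicate 1 had 84591 peaks in its longer deposited list and replicate 2 had 112174, with median signals of 0.819 and 0.760. Peak signal was a whole multiple of 1 step per library, 0.00853 in replicate 1 and 0.00884 in replicate 2. The median peak had 96 and 86 steps, called counts below. Whether they are a maximum or a sum over the peak is not stated. The total depth is unknown. Of bladder marker genes, 9 and 8 of 9 for urothelium, 8 and 6 of 8 for smooth muscle and 6 of 6 for fibroblasts had a promoter peak. The share of all protein-coding genes with one was 64.1% in replicate 1 and 66.4% in replicate 2. Median promoter signals, genes without a peak included, were 2.10 and 1.84 for urothelium, 0.793 and 0.862 for smooth muscle and 2.02 and 1.53 for fibroblasts. Of 6 genes each, endothelium had 3 and skeletal muscle 2 in each library, hepatocytes 1 in each and leucocytes 0 and 2.

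All 7 genes had a promoter peak, that is a peak within 1 kb of the start of a protein-coding transcript, in both libraries. Of all protein-coding genes, 64.1% had one in replicate 1, 66.4% in replicate 2 and 63.0% in both. The strongest promoter peak stood for the gene, and its deposited signal fell into 3 levels. Rxrb, Ppard and Ppara were high, Rxra and Pparg intermediate, and Ppargc1a and Rxrg low. Among genes with a promoter peak, the median signal was 3.27 in replicate 1 and 3.42 in replicate 2, which lay between the high and the intermediate genes.

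Rxrb, which encodes the widely expressed RXRβ, had promoter signals of 7.70 and 6.94 in replicates 1 and 2, a mean of 7.32 ± 0.540 (SD, n = 2). Ppard had 6.80 and 7.18, a mean of 6.99 ± 0.268. Ppara had 6.63 and 6.39, a mean of 6.51 ± 0.173. The libraries' ranges of Rxrb and Ppard overlapped, while both libraries of Ppara lay below both of Ppard. Rxra, for RXRα, had 3.06 and 2.78, a mean of 2.92 ± 0.196, and Pparg had 1.88 and 2.34, a mean of 2.11 ± 0.329. These ranges did not overlap each other or those of any high gene. Ppargc1a had 0.682 and 0.813, a mean of 0.748 ± 0.0925, and Rxrg, for RXRγ, had 0.443 and 0.689, a mean of 0.566 ± 0.174. The low pair overlapped in range, and both genes were without a promoter peak when each library was cut to its 42295 strongest peaks, where the other 5 genes kept theirs.

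The strongest promoter peak was not the same peak in both libraries at 3 genes, Rxra, Ppargc1a and Rxrg. The SD of these genes thus spans different peaks. At Rxra, the peak at the first start had 3.06 and 2.26, and the peak at 0.521 kb past it had 2.30 and 2.78. At Rxrg, the peak at the first starts had 0.443 and 0.424, and the one at the Rxrg-202 start had 0.375 and 0.689. At Ppargc1a, a peak of 0.682 was called in replicate 1 alone, and the peak at the main start had 0.665 and 0.813. The cut rate over the 180 bp of the first of these was significant in replicate 2 too (lowest false discovery rate 1.36e-08).

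Peak widths ranged from 80 to 400 bp among these strongest promoter peaks. Per 100 bp of peak, signal averaged 2.96 ± 0.0788 at Ppara, 2.93 ± 0.0503 at Rxrb and 2.81 ± 0.266 at Ppard (SD, n = 2). The order of these 3 genes was thus not the same per length. Rxra had 1.12 ± 0.0755, Pparg 0.779 ± 0.0812, Rxrg 0.363 ± 0.270 and Ppargc1a 0.317 ± 0.0883 per 100 bp. In each library the high genes lay above Rxra and Pparg, and these above the low pair. In replicate 1, however, Pparg (0.722) was closer to Rxrg (0.554) than to Rxra (1.18). Rxrg had 0.172 in replicate 2, at its other peak, and by mean the low pair changed order. Division by width presumes that the signal is a sum over the peak, which is not stated.

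**Figure D1:**
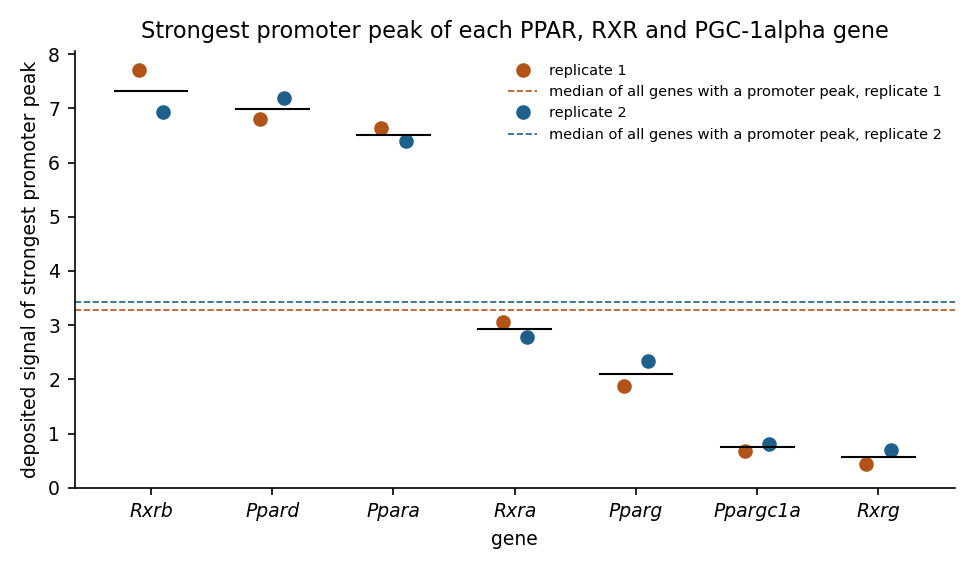
Deposited signal of the strongest promoter peak (vertical axis) of each of the 7 genes in replicate 1 and replicate 2, with the mean as a black line and the median of all genes with a promoter peak as a dashed line per library. Rxrb, Ppard and Ppara lie between 6.39 and 7.70, above the dashed lines at 3.27 and 3.42, and Ppargc1a and Rxrg lie below 0.9.

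The promoters of Ppara, Ppard and Rxrb carried the strongest peaks at an annotated start of their genes, and their sequences are shown for that reason. Each is the peak region in GRCm38.p6, which is mm10, without bases annotated as UTR, read in the direction of the gene. Capitals mark bases that lay in a deposited footprint, a short stretch protected from cutting, in both libraries. The reference is of C57BL/6 origin, and the CAST allele was not analysed here. The stretches are chr15:85735301-85735520 for Ppara, chr17:28232501-28232699 for Ppard and chr17:34031663-34031811 for Rxrb.
Ppara promoter: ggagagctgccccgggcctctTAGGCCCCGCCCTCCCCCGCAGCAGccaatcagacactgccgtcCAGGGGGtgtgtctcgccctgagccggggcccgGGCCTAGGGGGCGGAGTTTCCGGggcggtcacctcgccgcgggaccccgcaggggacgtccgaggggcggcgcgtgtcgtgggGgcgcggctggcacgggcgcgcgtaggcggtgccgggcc
Ppard promoter: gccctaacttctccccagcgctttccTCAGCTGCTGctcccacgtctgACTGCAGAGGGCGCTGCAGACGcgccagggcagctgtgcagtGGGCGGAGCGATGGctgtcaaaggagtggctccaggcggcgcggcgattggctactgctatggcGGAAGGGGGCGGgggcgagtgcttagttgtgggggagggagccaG
Rxrb promoter: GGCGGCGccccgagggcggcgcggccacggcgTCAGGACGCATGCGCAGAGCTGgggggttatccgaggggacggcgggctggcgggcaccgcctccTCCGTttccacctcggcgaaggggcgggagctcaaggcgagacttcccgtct
All 3 hold the letters GGGCGG, the core of an SP/KLF element, on either strand: 4 matches at Ppara, 2 at Ppard and 2 at Rxrb. At Ppara 2 of the 4 matches and at Ppard both lay wholly in capitals, while at Rxrb none did. GGGCGG was found in 28.6% of the peaks of the 7 loci in replicate 1 and 28.0% in replicate 2, against 23.2% and 19.1% of all peaks. Here and below, all peaks were not matched to those of the 7 loci in GC content or in the share at promoters.

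The receptor genes were next set among all 49 nuclear receptor genes of the annotation list. Of these, 40 had a promoter peak in each library, 38 in both and 7 in neither. The 40 were 81.6% of the list, against 64.1% and 66.4% of all protein-coding genes. The highest mean promoter signals were those of Esrra (12.6 ± 0.115), which encodes an orphan receptor of energy metabolism, Nr1d1 (11.4 ± 1.31), a circadian repressor, and Nr2c2 (10.8 ± 0.525). Among the 7 without a peak in either library were Hnf4a, a receptor of liver and gut, Nr0b1 and Nr0b2. Rxrb stood 5th, Ppard 7th, Ppara 9th, Rxra 22nd, Pparg 25th and Rxrg 34th. The place of Rxrb rests on a peak that also lies at the start of the neighbouring gene Slc39a7 and cannot be assigned to Rxrb alone.

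Next above Rxrb came Nr2c2 and Nr1d2, whose lowest value, 8.84, was above both of Rxrb. Next below Rxrb came Nr3c2, the mineralocorticoid receptor gene, at 7.99 and 6.59, a range that held both Rxrb libraries, and then Ppard. Nr1h2, which encodes the liver X receptor LXRβ, stood between Ppard and Ppara at 6.06 and 7.28, and Rarg, for the retinoic acid receptor RARγ, followed Ppara at 7.17 and 5.36. These ranges overlapped those of their PPAR neighbours. Below Rarg came Nr3c1, the glucocorticoid receptor gene, at 4.56 and 5.20, lower than Ppara in both libraries.

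Rxra stood among Thrb (3.16 and 2.92), Nr4a2 (3.17 and 2.69) and Nr4a3 (2.72 and 2.86), whose ranges overlapped its own, and above Rarb (2.05 and 2.26) in both libraries. Pparg overlapped Rarb above it and Rorb (1.35 and 2.16) below it, and was higher than Thra (1.79 and 1.35) in both libraries. Rxrg overlapped Esr1 (0.657 and 0.963), Esrrg (0.682 and 0.795) and Nr1i2 (0.537 and 0.574). Nr2f1, the next below Nr1i2, had a promoter peak of 0.964 in replicate 1 and none in replicate 2.

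**Figure D2:**
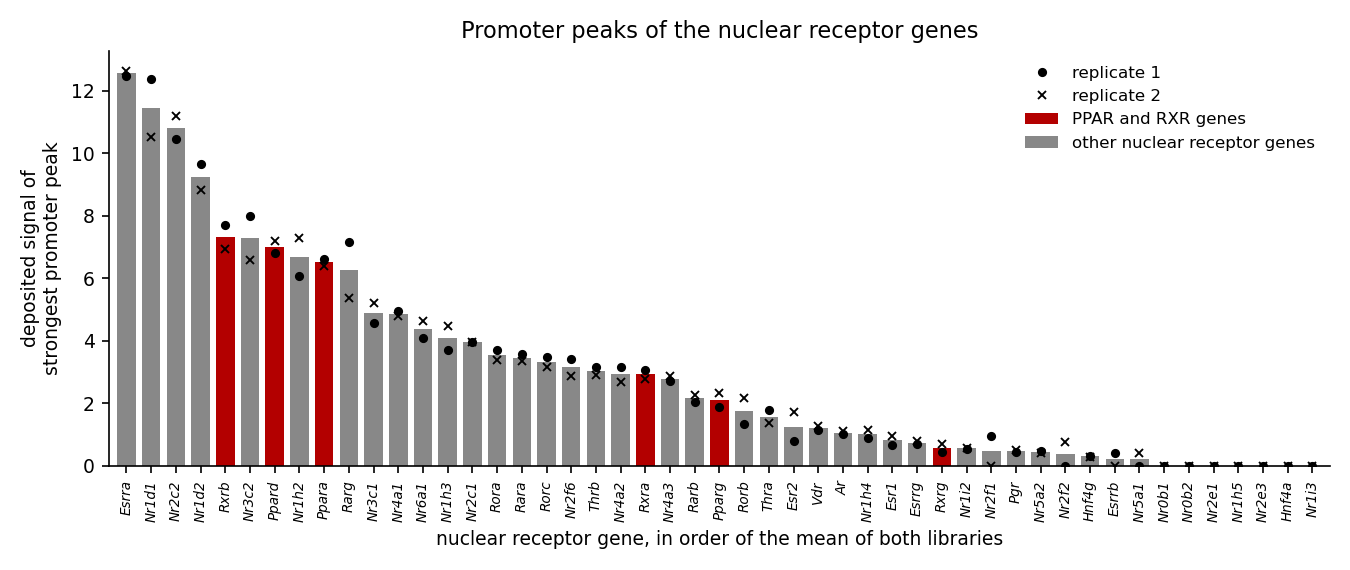
Deposited signal of the strongest promoter peak (vertical axis) of 49 nuclear receptor genes in order of the mean of both libraries (bars), with replicate 1 as dots and replicate 2 as crosses. The 6 receptor genes of the PPAR and RXR families (red) spread from 5th to 34th place, and the 7 genes at the right have no promoter peak in either library.

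The genes have 47 annotated starts of any transcript type in 23 groups of starts at most 500 bp apart, and each start was read on its own. In replicate 1, 35 of 47 had a peak within 1 kb and in replicate 2, 37, with 35 in both and 10 in neither. Of 93513 starts of protein-coding genes, 54.2% had one in replicate 1 and 56.6% in replicate 2. Starts of 1 group often met the same peak, as in the first Ppard group (6.80 and 7.18). These starts are therefore not separate observations, and genes with many close starts weigh more in the counts. Every start of Ppara (6) and Rxrg (4) had a peak in both libraries. At the other genes some starts had none: 2 of 7 at Pparg, 1 of 9 at Ppard, 2 of 6 at Rxra, 3 of 10 at Rxrb and 2 of 5 at Ppargc1a had no peak in either library.

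Pparg lies on chromosome 6 (115360951 to 115490399, plus strand, ENSMUSG00000000440.12). Its first starts were open: the start at 115360951 lay within a peak of 0.998 and 1.06, and the starts at 115362292 to 115362350 lay within the strongest promoter peak. The start at 115422066, that of Pparg-201, begins the transcript of PPARγ2, the isoform known from adipocytes. No peak lay on this start. A peak centred 925 bp upstream of it had a signal of 0.716 in replicate 1 and 1.5 in replicate 2, and a second one, centred 225 bp upstream, had 0.636 in replicate 2 and was not called in replicate 1. The starts of Pparg-207 and Pparg-205 had no peak within 1 kb in either library.

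The strongest peak of the Pparg locus lay 102 kb past its first start and not at a promoter. It had signals of 4.87 and 3.41 (571 and 386 counts), a mean of 4.14 ± 1.03 (SD, n = 2), above the strongest promoter peak in both libraries. It covers the end of an intron and the first 175 bases of the coding exon 5 of Pparg-201, which Pparg-202 and Pparg-204 share as their exon 6, and lies inside a second annotated gene, Gm44079. Its sequence (chr6:115463001-115463260) is shown because it leads the locus, and those of the peaks 925 and 225 bp upstream of the PPARγ2 start (chr6:115421041-115421240 and chr6:115421781-115421900) because they differed between the libraries. Capitals again mark bases in footprints of both libraries.
Pparg exon 5 peak: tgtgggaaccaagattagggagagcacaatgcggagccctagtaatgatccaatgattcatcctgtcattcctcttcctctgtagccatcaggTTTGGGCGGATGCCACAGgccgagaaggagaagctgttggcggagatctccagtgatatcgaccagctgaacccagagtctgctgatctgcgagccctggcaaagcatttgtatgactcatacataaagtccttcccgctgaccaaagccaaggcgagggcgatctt
Pparg peak 925 bp upstream of the Pparg-201 start: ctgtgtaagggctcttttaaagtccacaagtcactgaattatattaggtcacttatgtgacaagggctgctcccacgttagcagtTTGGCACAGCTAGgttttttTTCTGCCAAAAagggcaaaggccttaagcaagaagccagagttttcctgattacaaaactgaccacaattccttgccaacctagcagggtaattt
Pparg peak 225 bp upstream of the Pparg-201 start: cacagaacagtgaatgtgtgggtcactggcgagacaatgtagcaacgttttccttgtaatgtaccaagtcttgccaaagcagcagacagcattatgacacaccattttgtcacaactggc
The exon peak holds TGACTCA, the AP-1 consensus (both strands searched), at bases 207 to 213, outside the capitals, and GGGCGG at bases 97 to 102, inside them. The peak 925 bp upstream holds 1 AGGTCA half-site at bases 46 to 51, outside the capitals. The peak 225 bp upstream had 1 footprint in replicate 2 and therefore no capitals. AP-1 matches were found in 12.7% of the peaks of the 7 loci in replicate 1 and 10.7% in replicate 2, against 11.3% and 10.6% of all peaks. Half-sites were found in 9.52% and 13.3%, against 12% and 12.3% of all peaks.

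A further pair of Pparg peaks lay in the intron 119.5 and 119.9 kb past the first start. The nearer one had 2.22 and 1.78, and the farther one 1.16 and 2.05. So 1 peak was higher in replicate 1 and its neighbour in replicate 2. Of the 15 peak regions of the locus, 7 were found in both libraries. The 5 of replicate 2 alone had 0.398 to 0.636, and the 3 of replicate 1 alone had 0.580 to 0.836.

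Ppara lies on chromosome 15 (85734983 to 85802819, plus strand, ENSMUSG00000022383.13). Its promoter peak was centred 153 bp upstream of the first protein-coding start. A peak 6075 bp upstream of that start had 1.86 and 1.62. Within the gene, 3 peak regions between 36.0 and 51.3 kb past the start were found in both libraries and had at most 0.963. The strongest peak of the locus, with 8.62 and 9.61, lay downstream of Ppara at the start of Cdpf1, the neighbouring gene, and cannot be assigned to either gene from these data.

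Ppard lies on chromosome 17 (28232700 to 28301474, plus strand, ENSMUSG00000002250.16). Apart from the promoter, its strongest peaks lay outside the gene body. A peak 8439 bp upstream, at the start of AC126937.1 and inside the neighbouring gene Def6, had 5.06 and 5.54, and one 6449 bp upstream, also inside Def6, had 3.08 and 3.76. A peak 76.3 kb past the start, downstream of the gene, had 1.96 in replicate 1 and 5.22 in replicate 2 (230 and 591 counts), the widest gap between libraries among the peaks of the 7 loci found in both. The peak holds a match to the CTCF consensus, the element of a factor that marks chromatin loop ends, wholly within footprints of both libraries (capitals, chr17:28308921-28309100). CTCF matches were found in 3 peaks of the 7 loci in each library, 4.76% of those of replicate 1 and 4% of those of replicate 2, against 5.49% and 5.55% of all peaks.
Ppard downstream peak: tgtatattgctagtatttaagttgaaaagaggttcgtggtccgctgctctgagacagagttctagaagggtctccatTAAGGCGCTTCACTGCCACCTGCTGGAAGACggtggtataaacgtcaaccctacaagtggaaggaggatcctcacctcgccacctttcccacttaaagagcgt

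Rxra lies on chromosome 2 (27676440 to 27762957, plus strand, ENSMUSG00000015846.14) and was the locus richest in peaks. It held 19 peaks in replicate 1 and 23 in replicate 2, of which 17 and 20 were distal, that is over 1 kb from any protein-coding start. The distal density was 1.60 and 1.88 peaks per 10 kb, a mean of 1.74 ± 0.199 (SD, n = 2), the 98.2th percentile of all protein-coding loci. Of its 23 peak regions, 17 were intronic and 19 were found in both libraries. The strongest, intronic and 82.1 kb past the first start, had 5.06 and 5.45 (593 and 617 counts), a mean of 5.25 ± 0.280, above the strongest promoter peak in both libraries. Next by mean signal came an intronic peak at 68.5 kb with 3.62 and 4.38, a peak downstream of the gene at 88.7 kb with 3.05 and 4.74, and a peak at 64.0 kb with 4.08 and 3.68, which lay at the first exon of the non-coding transcript Rxra-205. The internal protein-coding starts at 27709292 and 27710583 had no peak within 1 kb in either library.

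The sequences of the strongest Rxra peak (chr2:27758481-27758680) and of the intronic peak 45.4 kb past the start that differed most between the libraries (chr2:27721681-27721940, the part called in both) are given with footprints of both libraries in capitals. The second of them had 3.61 in replicate 1 and 1.9 in replicate 2.
Rxra strongest intronic peak: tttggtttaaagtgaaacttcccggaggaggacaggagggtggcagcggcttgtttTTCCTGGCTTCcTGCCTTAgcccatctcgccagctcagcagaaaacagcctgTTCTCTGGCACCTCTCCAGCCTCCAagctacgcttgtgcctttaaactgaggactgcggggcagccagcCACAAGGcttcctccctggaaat
Rxra intronic peak at 45.4 kb: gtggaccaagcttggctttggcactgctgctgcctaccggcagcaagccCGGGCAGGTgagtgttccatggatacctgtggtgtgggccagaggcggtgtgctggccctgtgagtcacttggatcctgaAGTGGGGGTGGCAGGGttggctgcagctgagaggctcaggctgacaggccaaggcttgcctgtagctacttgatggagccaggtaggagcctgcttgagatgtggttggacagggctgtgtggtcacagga
The strongest peak had 5 footprints in each library and 50 bases in footprints of both, and held no AGGTCA half-site and no AP-1, SP/KLF, CCAAT or CTCF match. The peak at 45.4 kb holds TGACTCA on the minus strand at bases 111 to 117, outside the capitals, where the printed strand reads TGAGTCA.

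Rxrb, on chromosome 17 (34031812 to 34038399, plus strand, ENSMUSG00000039656.17), is the shortest of these genes, 6.59 kb long in a dense gene neighbourhood. Its promoter peak also lies within 1 kb of the start of Slc39a7, a zinc transporter gene read in the other direction, and is the only promoter peak of the 7 genes that was lost when peaks near another gene's start were left out. Just past it the libraries did not share a peak: replicate 1 had one of 2.50 in the first exon (34031921 to 34032180), and replicate 2 had one of 1.17 next to it (34032201 to 34032520). Each of these stretches held a listed stretch of significant cut rate in the other library too. Peaks of 4.25 and 3.61 and of 2.54 and 2.60, which lay upstream at the starts of H2-Ke6 and Ring1, were shared by both libraries. The locus held no distal peak in replicate 1 and 1 in replicate 2.

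Rxrg, on chromosome 1 (167598384 to 167639623, plus strand, ENSMUSG00000015843.10), and Ppargc1a, on chromosome 5 (51454250 to 51567726, minus strand, ENSMUSG00000029167.13), were open only weakly. RXRγ is known mainly from muscle and brain, and PGC-1α from tissues rich in mitochondria. The first starts of Rxrg lay at a peak of 0.443 and 0.424, and the start of Rxrg-202, 19.9 kb farther on, at one of 0.375 and 0.689. The strongest Rxrg peak lay downstream of the gene, 46.7 kb past the first start, with 1.53 and 2.31, and the next, intronic at 38.8 kb, had 1.08 and 1.5. At Ppargc1a the main start at 51553922 lay in a peak of 0.665 and 0.813. The upstream start at 51567726, of an alternative first exon known from muscle, had no peak within 1 kb in either library. The strongest Ppargc1a peak, intronic and 1230 bp past the nearest protein-coding start, had 1.14 and 1.46. An intronic peak 22.4 kb past the upstream start had 0.614 and 0.513.

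The strongest peaks of these weak loci are shown for comparison with the strong ones, for Rxrg at chr1:167645001-167645200 and for Ppargc1a at chr5:51552661-51552800, the part called in both libraries, on the minus strand.
Rxrg downstream peak: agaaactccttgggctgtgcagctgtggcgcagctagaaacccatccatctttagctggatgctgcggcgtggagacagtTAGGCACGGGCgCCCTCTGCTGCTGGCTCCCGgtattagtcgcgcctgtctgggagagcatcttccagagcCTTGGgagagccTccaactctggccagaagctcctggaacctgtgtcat
Ppargc1a intronic peak: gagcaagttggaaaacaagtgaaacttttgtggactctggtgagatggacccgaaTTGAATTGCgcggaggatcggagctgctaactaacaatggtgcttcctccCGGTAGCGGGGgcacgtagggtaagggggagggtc
The Rxrg peak had 37 bases in footprints of both libraries and the Ppargc1a stretch 20, and neither held an AGGTCA half-site or an AP-1, SP/KLF, CCAAT or CTCF match. CCAAT was found in 25.4% and 25.3% of the peaks of the 7 loci, against 21% and 21.8% of all peaks.

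**Figure D3:**
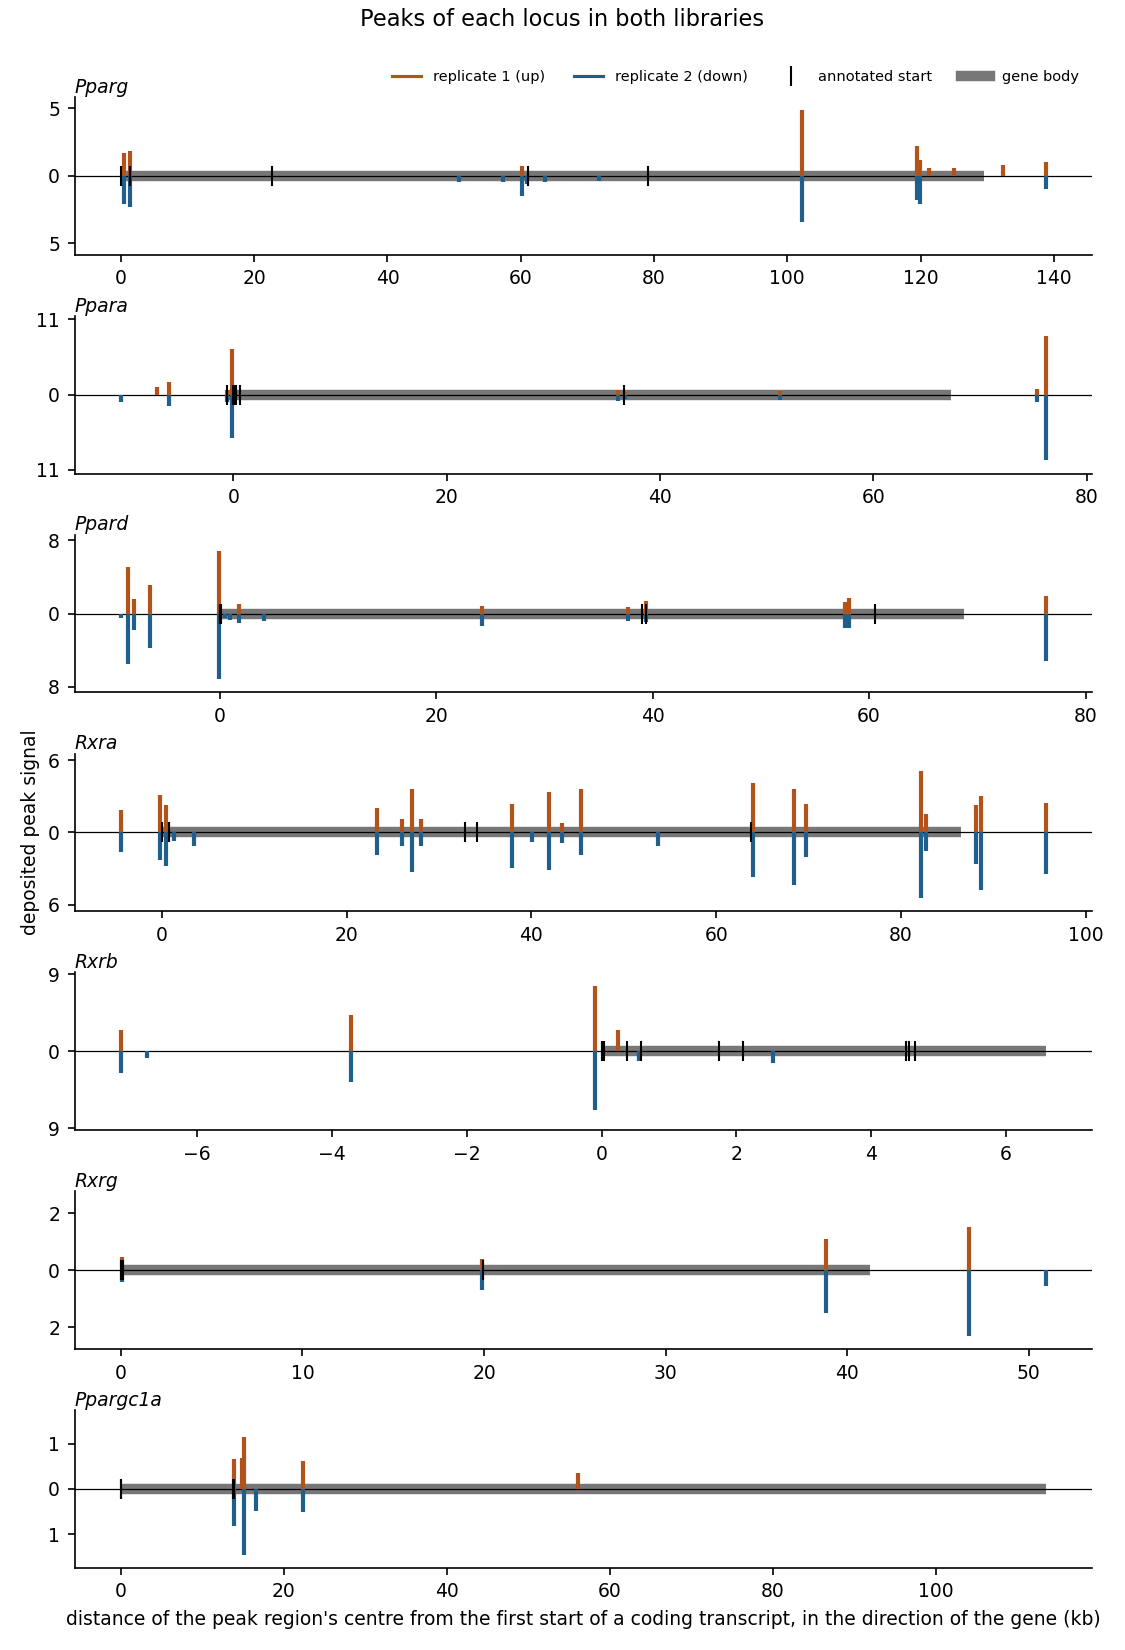
Deposited signal of every peak region of the 7 loci by distance (kb) from the first start of a protein-coding transcript, in the direction of the gene, with replicate 1 upwards and replicate 2 downwards, each panel with its own vertical scale. Rxra carries peaks along its whole length, up to 5.06 and 5.45, while the Ppargc1a locus stays below 1.5 in both libraries.

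Across loci, levels were compared per length. Summed peak signal per 10 kb was 6.29 ± 0.139 at Rxrb, 4.89 ± 0.324 at Rxra, 3.30 ± 0.618 at Ppard, 2.54 ± 0.155 at Ppara, 1.08 ± 0.0456 at Pparg, 0.726 ± 0.236 at Rxrg and 0.252 ± 0.00974 at Ppargc1a (SD, n = 2). These sums count peaks at the starts of neighbouring genes too. At Rxrb, 6 of 7 peak regions lay within 1 kb of another gene's start, its promoter peak among them. At Ppard 3 of 15 did, and at Ppara 2 of 10, among them the strongest of the locus. The other loci had none. Distal peak density gave another order. After Rxra came Ppard with 1.13 ± 0.159 distal peaks per 10 kb, Ppara with 0.569 in each library, Pparg with 0.502 ± 0.0473, Rxrg with 0.408 ± 0.115, Ppargc1a with 0.225 in each library and Rxrb with 0.188 ± 0.266. The median of the 7 loci was 0.502 ± 0.0473, against 0.289 ± 0.0939 over all protein-coding loci. Among the 49 nuclear receptor genes, however, the middle place, the 25th, had a mean of 0.486 (Esrra), close to that of the 7 loci. Rxra stood 4th of the 49, behind Nr1d1 (3.28), Rara (2.09) and Thra (1.76).

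The peaks of the 7 loci numbered 63 in replicate 1 and 75 in replicate 2, in 81 regions. Of the regions, 55 were found in both libraries, 7 in replicate 1 alone and 19 in replicate 2 alone. By place, 45 were intronic, 11 upstream, 10 downstream, 8 in UTR exons, 4 in coding exons and 3 in exons of non-coding transcripts. Counted by peak, 88.9% of the 63 in replicate 1 and 74.7% of the 75 in replicate 2 were found in the other library, against 84.7% and 64.1% of all peaks. The regions called in 1 library had signals of 0.350 to 2.50, and in 3 of these 26 the other library had a listed stretch of significant cut rate. In the deposited shorter lists, 73.0% and 72.0% of the peaks were found again, against 60.0% and 61.5% of all peaks.

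Footprints were denser in these peaks than over all peaks. There were 161 in replicate 1 and 185 in replicate 2, or 12.1 and 11 per kb of peak, against 9.80 and 9.66 per kb over all peaks. At least 1 footprint lay in 82.5% of the peaks in replicate 1 and 93.3% in replicate 2, against 76.9% and 76.1% of all peaks. Where both libraries had a peak, 62.8% (replicate 1) and 59.3% (replicate 2) of the footprints were met by a footprint of the other library, against 61.0% and 53.1% over all peaks. The median signal of the peaks, 1.53 and 1.38, was also above that of all peaks, and its part in these shares was not tested.

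The genes' own loci were searched for the element that their products bind. With up to 2 mismatches on either strand, 1 of 63 peaks in replicate 1 and 1 of 75 in replicate 2 held a DR1 match (1.59% and 1.33%), against 2.70% and 2.84% of all peaks. With up to 1 mismatch no peak did. The match lay in the same peak in both libraries, 7889 bp upstream of Ppard inside Def6, with signals of 1.58 and 1.75, and is printed within that peak (chr17:28224721-28224900).
Ppard peak with the DR1 match: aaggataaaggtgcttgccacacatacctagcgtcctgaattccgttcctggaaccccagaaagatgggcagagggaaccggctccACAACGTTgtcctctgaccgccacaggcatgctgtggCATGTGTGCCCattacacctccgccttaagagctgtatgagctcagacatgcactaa
The match takes bases 94 to 106 and reads CGGTCAGAGGACA on the minus strand (chr17:28224814-28224826). Of its 13 bases, 3 lay in a footprint of replicate 1 and 1 in a footprint of replicate 2. A match of these letters is a description of the sequence and not of binding.

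The libraries were then compared at the 55 pairs of overlapping peaks. Log2 ratios of replicate 2 over replicate 1 were centred on the median of all 70427 pairs, 0.14. Of the 55 pairs, 6 were over 1.5-fold higher in replicate 2 (10.9%) and 3 over 1.5-fold lower (5.45%), against 15.2% and 7.30% of all pairs. The median was -0.03 with an SD of 0.43, and the SD over all pairs was 0.50. The 6 higher pairs were the downstream Ppard peak (centred log2 ratio 1.27), the Pparg peak 925 bp upstream of the PPARγ2 start (0.93), the peak at the Rxrg-202 start (0.73), the Pparg peak at 119.9 kb (0.68), an intronic Ppara peak at 51.3 kb (0.66) and an intronic Ppard peak at 24.3 kb (0.59). The 3 lower pairs were the Rxra peak at 45.4 kb (-1.07), the peak at the Ppard-206 start (-0.74) and the Pparg exon 5 peak (-0.66). With 1 library on each side no test was possible.

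**Figure D4:**
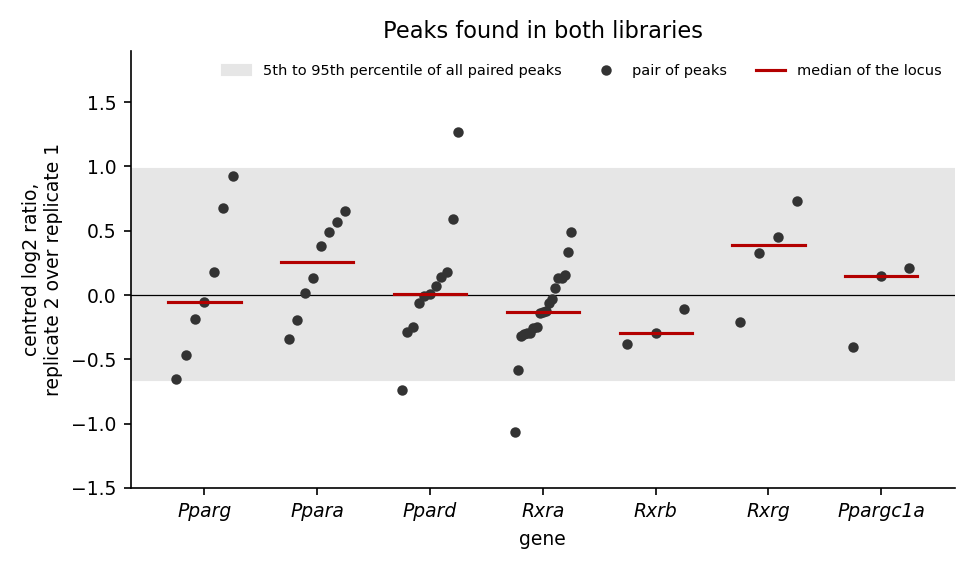
Log2 ratio of replicate 2 over replicate 1 (vertical axis), centred on the median of all paired peaks, for the 55 pairs of the 7 loci (dots) with the median of each locus (red line) and the 5th to 95th percentile of all paired peaks (grey, -0.66 to 0.98). The downstream Ppard peak at 1.27 and the Rxra peak at -1.07 lie farthest from 0.

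Signal was also summed over each locus and compared between the libraries. The centred log2 ratio was 0.39 at Rxrg and 0.10 at Ppard, and it was -0.15 at Rxra, -0.16 at Ppara, -0.20 at Pparg, -0.33 at Rxrb and -0.36 at Ppargc1a. These ratios were centred on the median of the 17298 protein-coding loci that had signal in each library, whose SD was 0.45, and each of the 7 loci lay within 1 SD of the centre. Without centring the median of the 7 loci was 0.12 in place of -0.16.

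The partners and targets of the receptors were read from gene lists, which were chosen with earlier results of these data known. Beside the counts below stand the shares of all protein-coding genes with a promoter peak. These were 64.1% in replicate 1, 66.4% in replicate 2 and 63.0% in both. Of 13 other partners of RXR, 12 had a promoter peak in both libraries, with a median promoter signal of 3.16 and 2.69 over the list. Nr1h2 (6.06 and 7.28), Rarg (7.17 and 5.36) and Nr4a1 (4.95 and 4.78) led, and Nr1i3, the receptor CAR of liver, had none in either library. All 18 coactivator and corepressor genes had a promoter peak in both libraries, led by Ncoa2 (9.20 and 10.7), a p160 coactivator, Cited2 (7.29 and 8.84) and the deacetylase gene Hdac3 (5.39 and 6.74).

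Of 22 fatty acid oxidation genes that PPARα and PPARδ are known to regulate, 16 had a promoter peak in both libraries and 6 in neither. The 16 were 72.7% of the list, against 63.0% of all protein-coding genes with a peak in both. Acaa1a (8.82 and 7.01), for a peroxisomal thiolase, and Acadm (6.45 and 7.87), for a mitochondrial dehydrogenase, had the highest mean promoter signals. Cpt1b, the muscle form of the carnitine palmitoyltransferase, and the liver genes Cyp4a10 and Cyp4a14 were among those without a peak. Hadha and Hadhb share 1 promoter, so the count holds 1 promoter peak 2 times.

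All 14 genes of urothelial differentiation linked to PPARγ had a promoter peak in both libraries, against 63.0% of all protein-coding genes. Their median promoter signal was 2.35 and 2.05, below the 3.27 and 3.42 of all genes with a promoter peak. The list was led by Acsl1 (9.56 and 9.64), an acyl-CoA synthetase gene, Gata3 (5.77 and 5.31), a urothelial transcription factor gene, and Fabp5 (3.31 and 4.89), which encodes a fatty acid carrier. Krt20 was lowest, at 0.401 and 0.345. Of 9 genes of mitochondrial biogenesis downstream of PGC-1α, 9 had one in replicate 1 and 8 in replicate 2, led by Esrra, Tfb2m (9.16 and 7.38) and Tfb1m (7.53 and 7.12). The exception was Esrrb, with 0.418 in replicate 1. Of 15 genes that supply or carry ligands, 11 and 12 had one, a mean of 76.7%, against 64.1% and 66.4% of all genes. Fabp5, Alox12 (2.09 and 1.87) and Ptgs1 (1.91 and 2.01) led this list, and Alox15, Crabp2 and Ptgds had none in either library.

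The 17 adipocyte genes, targets of PPARγ and markers of fat cells, were the list in which the libraries differed most in count. In replicate 2, 16 had a promoter peak and in replicate 1, 9. Adipoq, Fabp4, Cd36, Pck1, Aqp7, Lep and Retn had one in replicate 2 alone, at 0.424 to 1.31, and none had one in replicate 1 alone. Of all genes, 3.38% had a promoter peak in replicate 2 alone and 1.10% in replicate 1 alone. Cebpa (6.66 and 9.21), Lipe (4.49 and 5.89) and Pnpla2 (4.43 and 5.86), which other tissues also use, led the list in both libraries, and Cfd had no promoter peak in either. Summed locus signal of the list was 115.5 in replicate 1 and 171 in replicate 2. After centring, 15 of 17 loci were higher in replicate 2, with a median log2 ratio of 0.72, against -0.16 for the 7 receptor and coactivator loci. With each library cut to its 42295 strongest peaks, replicate 1 kept a promoter peak at 4 adipocyte genes and replicate 2 at 8. The genes with one in replicate 2 alone were then Plin1, Cidea, Fabp4 and Lpl. Of the 7 genes named above, only Fabp4 was thus left, and the others had no promoter peak in either library after the cut.

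The Pparg locus did not move in 1 direction. Its peaks upstream of the PPARγ2 start were higher in replicate 2 or called there alone. The Pparg promoter peaks had centred log2 ratios of -0.06 at the first start and 0.18 at the starts from 115362292 to 115362350. Its strongest peak, at exon 5, had -0.66. Of the 7 Pparg pairs, 3 were higher in replicate 2 after centring and 4 lower, and the summed locus had -0.20. The urothelium marker loci had a median centred log2 ratio of -0.24, with 7 of 9 lower in replicate 2. The medians were 0.0016 for fibroblast, 0.08 for smooth muscle, 0.18 for endothelium and 0.63 for leucocyte marker loci. They were -0.03 for skeletal muscle and -0.38 for hepatocyte marker loci. Of 6 leucocyte markers, 0 were open at the promoter in replicate 1 and 2 in replicate 2. The part of these cell types in the differences at Pparg and Rxrg was not tested.

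**Figure D5:**
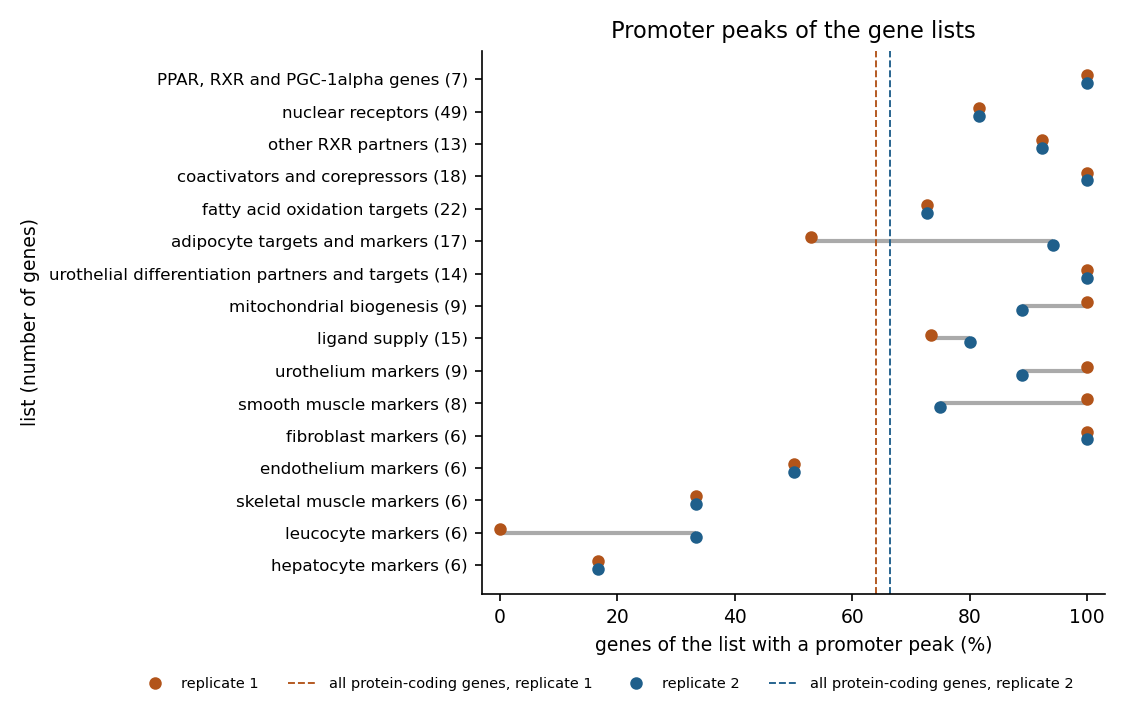
Share of the genes of each list with a promoter peak (horizontal axis, percent) in replicate 1 and replicate 2, with the share of all protein-coding genes as dashed lines (64.1% and 66.4%). All 7 PPAR, RXR and PGC-1α genes have one in both libraries, and the adipocyte list shows the widest gap between the libraries, 9 and 16 of 17 genes.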

How the data were processed

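DNase-seq peaks, footprints and cut-rate stretches were used as the authors deposited them, per library and unpooled, on mm10 per the deposited file listing. The sources used here name no aligner or peak caller. The deposited peak signal was read as a scaled count. Its factor, and whether it is a maximum or a sum over the peak, are not stated. Divided by the step of its library, 100% of peak values came out whole, to within 0.02. The deposited cut-rate files hold a false discovery rate on the p-value scale, listed under 0.05, and every deposited footprint carries 0.01, so footprints were not ranked. Per library, the longer of 2 deposited lists was the main one.

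Genes came from GENCODE M21 and sequence from GRCm38.p6, on chromosomes 1 to 19, X and Y. Loci ran from 10 kb before to 10 kb after a gene. Peaks overlapped by at least 1 bp. Counting used Python 3.11.15, pandas 2.3.3 and pysam 0.24.0 and was checked on simulated peaks. With 1 group of 2 libraries, means and SD are given and no test was made.

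The genes and lists were chosen with earlier results of these data known. Named genes were the 7 genes, the 3 leading genes of each other functional list by mean promoter signal, up to 3 per list that had no promoter peak, the nuclear receptors next to each gene in order, and the 3 strongest peaks per locus. Further peaks and genes were picked with their values known, and markers of cell types are given as counts. One gene that this rule names is not reported here.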

Additional observations from a re-analysis of the deposited data

How the results depend on the processing

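Of 128 alternatives over 25 results, 110 left the result within 1.5 times (counts) or within its spread. The count of 7 genes with a promoter peak stayed at 7 for windows of 250, 500 and 2000 bp and in the shorter lists, was 6 without peaks near another gene's start (Rxrb lost) and 5 among the 42295 strongest peaks (Rxrg and Ppargc1a lost). With 50 kb on either side the mean number of locus peaks was 133 in place of 69. Median distal density moved to 0.741 with 50 kb, 1.02 with promoter peaks kept, 0.391 in the shorter lists and 0.327 among the strongest peaks, with 0.350, 0.668, 0.0938 and 0 over all loci. The share of replicate 2 peaks found in replicate 1 was 86.0% among the strongest peaks. The median locus log2 ratio turned to 0.12 without centring, because replicate 2 values were higher over all loci, by a median of 0.28. DR1 matches with up to 3 mismatches were found in 19% and 14.7% of the peaks, against 17.8% and 18.2% of all peaks.

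Counts of listed genes in both libraries moved in the shorter lists to 5 of 17 adipocyte, 3 of 8 smooth muscle, 1 of 6 endothelium and 0 of 6 hepatocyte genes. Among the strongest peaks, an alternative added after seeing the data, 4 adipocyte genes remained. On replicate 1 or 2 alone the adipocyte count was 9 to 16, the skeletal muscle count 2 to 2 in place of 1, and the leucocyte count 0 to 2. On 1 library alone the other counts were 7 to 7 genes, 35 to 37 starts, 63 to 75 peaks, 161 to 185 footprints and a density of 0.468 to 0.535. Apart from centring, the cause was not tested. No paired analysis was possible because there is 1 group. Depth is unknown, so a peak called in 1 library alone may lie below the limit of the other.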
